A study of Gallus gallus with 6 samples.

Results

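The genes described here are 44 translation factors and aminoacyl-tRNA synthetases of the chicken, measured in DT40 B cells with and without the transcription factor IRF4. They were chosen by symbol alone: initiation factors (EIF with a digit), elongation factors (EEF), release factors (ETF1 and GSPT) and the cytosolic and mitochondrial synthetases (symbols ending in ARS, ARS1 or ARS2). The rule takes 93 symbols of the RefSeq gene table used for naming, and 44 of these had a probe whose accession matched, among 4932 genes named on the array. Ribosomal proteins were not included. Each gene is given by its brightest probe over all 6 arrays.

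The study set IRF4-deficient DT40 cells against wild-type DT40 cells, both untreated, with total RNA from 3 independent cultures of each hybridised to 1-colour Agilent chicken arrays. DT40 is an established chicken B-cell line that came from an avian leukosis virus-induced bursal lymphoma. The sources used here do not say how many knockout clones were cultured or which part of IRF4 was disrupted, so the cultures may be of 1 clone, and clone and genotype cannot be told apart. The p-values measure the spread between these cultures.

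Levels are given as log2 signal relative to the 75th percentile of the same array, so 0 is the signal of that percentile. Fold changes are knockout minus wild type on the log2 scale, and a gene is called when limma's adjusted p, by Benjamini-Hochberg over 19802 features, is under 0.05. Levels of different probes are not set against each other, since each probe has its own response.

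The array depth was even. Between 62.4% and 68.2% of 43803 gene spots per array were well above background, none were saturated, and the 75th percentile lay at 98.0 to 111 times the median background. IRF4 had log2 signals of -1.12, -1.36 and -1.12 in knockout cultures, against 3.16, 2.96 and 2.92 in wild-type cultures. That is 18.6-fold lower in knockout cells (limma, adjusted p = 4.86e-07). An exact two-sided permutation test gave p = 0.1, the smallest that 3 arrays against 3 allow. Of the B-cell markers, 9 of 12 were matched and all 9 were above background on every array, PAX5, EBF1 and CD79B among them. Their summed signal was 7.44 to 7.52 in knockout cultures and 6.89 to 7.02 in wild-type cultures, as the log2 of the sum. The sums in this paragraph add probes that each have their own response, and they are a description only. CD72 had the largest rise, 9.25-fold. Of the 9 genes 6 were called higher and 3, CD79B among them, were not called. Of the T-cell markers 6 of 9 were matched, and their summed signal was 6.22 to 6.46 in knockout cultures and 6.09 to 6.14 in wild-type cultures, with CD4 above background on no array. CD3D, not called, has most of that sum, while CD3E was 10.8-fold lower, CD8A was 2.19-fold lower and CD5 was 2.95-fold higher in knockout cells. Of the myeloid markers 5 of 7 were matched, with CD14, CSF3R and MARCO above background on no array, LYZ 3.23-fold lower (measured on 2 knockout arrays) and TLR4 3.11-fold higher. Of the fibroblast markers 5 of 7 were matched, with a summed signal of 2.50 to 2.70 in knockout cultures and -1.59 to -1.49 in wild-type cultures. COL1A2, 18.9-fold higher in knockout cells, has most of that sum. COL3A1 was 1.65-fold higher at low signal. DCN, PDGFRA and FN1 were not above background throughout either group and were not tested. FN1 was above background on 2 knockout arrays and 1 wild-type array. Of the erythroid markers 1 of 5 was matched, HBBA, at -6.68 to -6.08 in knockout cultures and -5.52 to -5.24 in wild-type cultures. The part of these marker differences in the results below was not tested.

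Translation begins when the factor eIF2 brings the initiator tRNA to the small ribosomal subunit, which is held by eIF3 and loaded on the mRNA cap by the eIF4 factors. Elongation factors then deliver aminoacyl-tRNAs and move the ribosome, release factors end the chain, and the synthetases charge each tRNA with its amino acid. Kinases that phosphorylate eIF2 lower initiation under stress. IRF4 is known in B cells for its role in antibody-secreting plasma cells, which make protein at a high rate.

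All 44 genes passed the filter on low signal, and 43 were above background on all 6 arrays. In knockout cells 17 were higher, 12 were lower and 15 were not called. Across all features 69.2% were called, 40.4% higher and 28.8% lower, and across 3836 named genes 69.8% were called, so a share of 65.9% among the translation genes was near that of the array as a whole. The median log2 fold change was 0.07 over the 44 genes and 0.09 over all features. In 29 of the 44 the 3 knockout values and the 3 wild-type values did not overlap, whereas 76.3% of named genes had groups that did not overlap.

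The changes were small. Fold changes on the log2 scale ran from -0.55 for EIF2A to 0.59 for EIF3I, and their median size was 0.18, against 0.31 over the other named genes. On its brightest probe no member was called at 2-fold or more, a size reached by 13.3% of named genes. Only EIF3I was called at 1.5-fold or more, a size reached by 26.5% of named genes. All 44 lay within 0.6 of no change on the log2 scale, as did 73.4% of the other 3792 named genes. This limit lies just above the largest member value, so the share of members within it carries no further information. The largest size among the members depended on the setting. It was 0.64 with median centring or quantile normalisation and 0.65 in the deposited series table. With chromosome medians subtracted, as described below, it was 0.72 or 0.66. As the mean of a gene's probes it was 0.91, for EIF2AK2, which has a dimmer probe at -1.85.

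**Figure D1:**
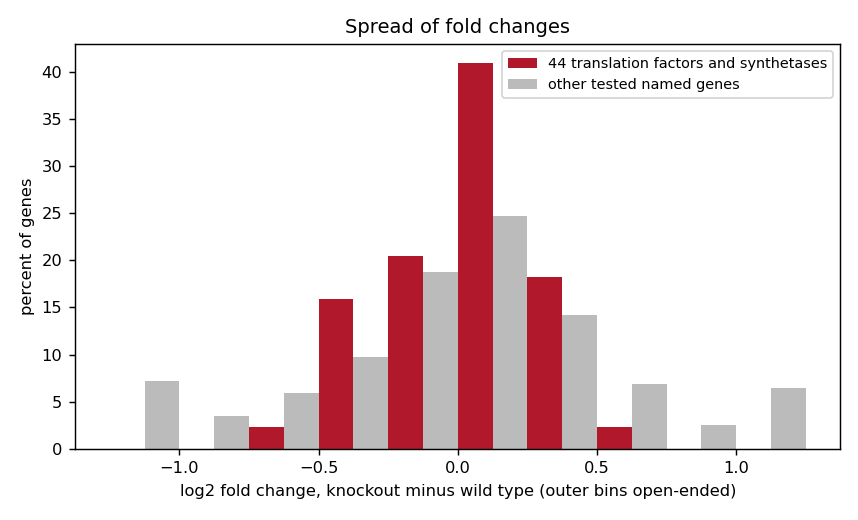
Percent of genes in each bin of log2 fold change (knockout minus wild type), for the 44 translation factors and synthetases and for the other 3792 tested named genes; the outer bins are open-ended. The translation genes fill the middle bins, all between -0.55 and 0.59. Of the other named genes 73.4% lie within 0.6 of no change, a limit just above the largest member value.

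Among the 11 factors that load the initiator tRNA or select the start codon, 6 were higher, 1 was lower and 4 were not called, with a median log2 fold change of 0.13. The 63.6% called was near the 69.2% of all features. Of all features 40.4% were called higher and 28.8% lower, and the class counts below stand beside these shares. EIF2S3, the gamma subunit of eIF2 that binds the initiator tRNA, had log2 signals of 6.11, 5.81 and 6.08 in knockout cultures, against 5.68, 5.64 and 5.42 in wild-type cultures. The groups did not overlap, and the gene was 1.34-fold higher in knockout cells (log2 fold change 0.42 ± 0.11 SE, limma adjusted p = 0.0128). EIF2S2, the beta subunit, was 1.11-fold higher (log2 signals 4.90, 4.93 and 4.87 in knockout cultures and 4.80, 4.74 and 4.70 in wild-type cultures, adjusted p = 0.0198). The remaining EIF2S2 probes were not called, at 0.02 and 0.07. EIF2S1, the alpha subunit that the eIF2 kinases phosphorylate, was not called (4.89, 4.98 and 4.99 in knockout cultures, 4.95, 4.80 and 4.98 in wild-type cultures). The 95% interval of its log2 fold change was -0.10 to 0.20.

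Both measured subunits of eIF2B, the factor that reloads eIF2 with GTP, were higher in knockout cells. EIF2B2 had log2 signals of 2.92, 2.92 and 2.92 in knockout cultures, against 2.63, 2.59 and 2.65 in wild-type cultures, a 1.23-fold difference (log2 fold change 0.30 ± 0.04 SE, limma adjusted p = 0.00044). The knockout values were equal to the second decimal and all lay above the wild-type values. EIF2B3 was 1.19-fold higher, with 2.47, 2.68 and 2.58 in knockout cultures against 2.33, 2.27 and 2.39 in wild-type cultures (adjusted p = 0.0143).

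EIF2D, a factor that can deliver tRNA to the ribosome without eIF2, was 1.21-fold higher (mean log2 signals of 4.27 ± 0.04 in knockout cultures and 3.99 ± 0.02 in wild-type cultures, SD, n = 3 each, limma adjusted p = 0.000964). EIF1, which guards the fidelity of start-codon choice, was 1.09-fold higher (5.79, 5.90 and 5.89 in knockout cultures, 5.78, 5.70 and 5.72 in wild-type cultures, adjusted p = 0.0489). EIF2A, a separate initiation factor that is not a subunit of eIF2, went the other way. It had log2 signals of 2.75, 2.85 and 2.65 in knockout cultures, against 3.37, 3.27 and 3.25 in wild-type cultures, and was 1.46-fold lower in knockout cells (log2 fold change -0.55 ± 0.07 SE, adjusted p = 0.000465). This was the largest fall among the 44 genes. EIF5, which makes eIF2 hydrolyse its GTP, EIF5B, which joins the ribosomal subunits, and EIF1AX, which aids scanning, were not called, with 95% intervals of -0.13 to 0.37, -0.08 to 0.13 and -0.23 to 0.09.

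**Figure D2:**
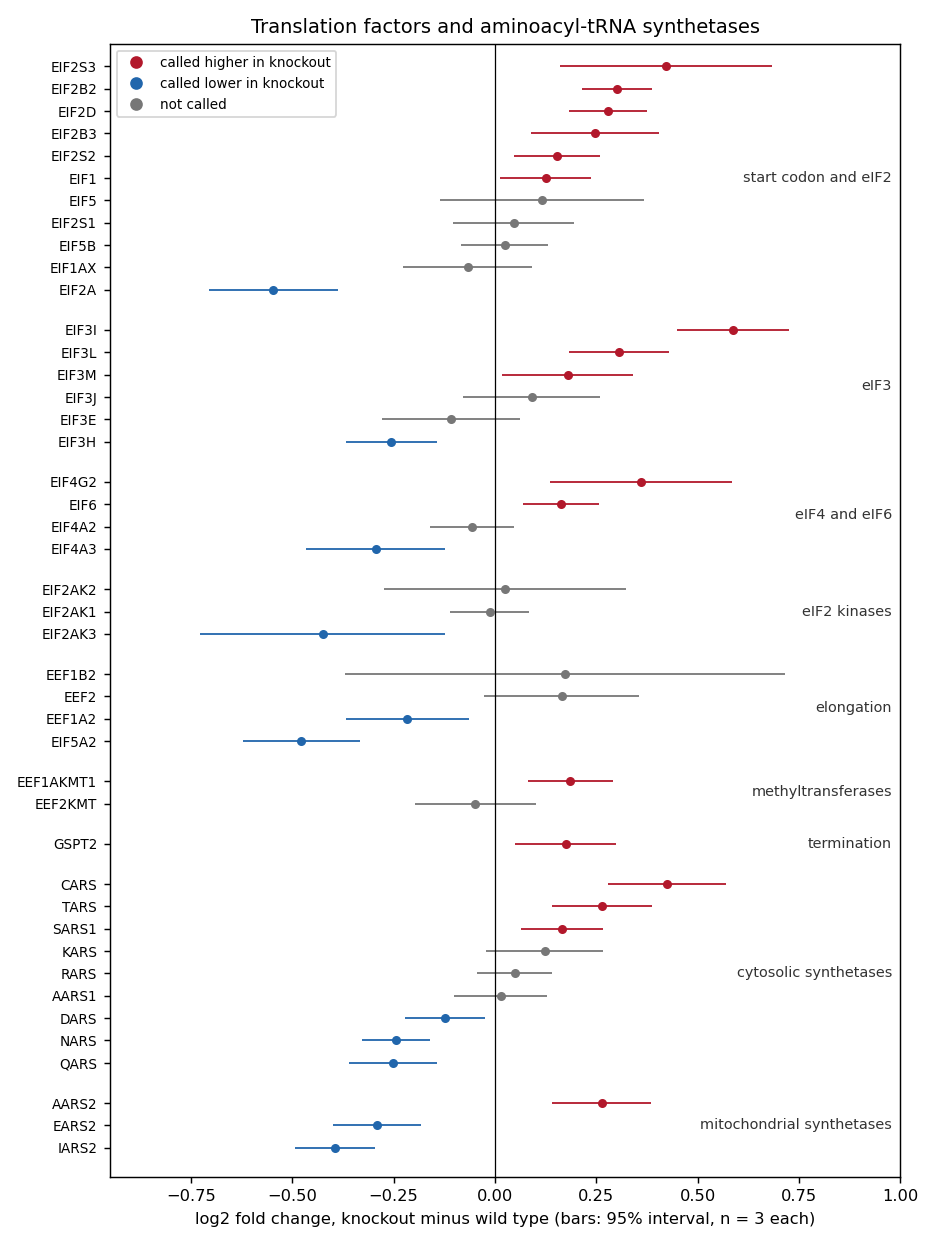
Log2 fold change (knockout minus wild type) of 43 of the 44 genes, grouped by role, with the 95% interval from limma (n = 3 arrays each). Red points were called higher in knockout cells (17), blue points lower (11) and grey points were not called (15); EIF3I lies farthest right at 0.59 and EIF2A farthest left at -0.55.

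Of the 6 subunits of eIF3, the scaffold that organises initiation on the small ribosomal subunit, 3 were higher, 1 was lower and 2 were not called. That is 66.7% called, against 69.2% of all features. EIF3I had log2 signals of 6.12, 6.11 and 5.96 in knockout cultures, against 5.52, 5.47 and 5.44 in wild-type cultures. Its log2 fold change of 0.59 ± 0.06 (SE, limma adjusted p = 0.00017) was the largest rise among the 44 genes, and all 5 of its probes were called higher, at 0.53 to 0.68. EIF3L was 1.24-fold higher (5.29, 5.19 and 5.33 in knockout cultures, 4.97, 4.92 and 5.00 in wild-type cultures, adjusted p = 0.00208). EIF3M was 1.13-fold higher (5.80, 5.74 and 5.60 in knockout cultures, 5.59, 5.54 and 5.47 in wild-type cultures, adjusted p = 0.0497).

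EIF3H was the eIF3 subunit that fell. It had log2 signals of 4.76, 4.77 and 4.84 in knockout cultures, against 5.06, 4.98 and 5.09 in wild-type cultures, and was 1.19-fold lower (log2 fold change -0.26 ± 0.05 SE, limma adjusted p = 0.00298). EIF3J, a loosely bound subunit, and EIF3E were not called on their brightest probes, with 95% intervals of -0.08 to 0.26 and -0.28 to 0.06. The mean of the EIF3E probes was called lower (-0.12, adjusted p = 0.0495). The called eIF3 subunits thus moved in both directions, as did all features, 40.4% called higher and 28.8% lower. EIF3H and EIF3E lie on a chromosome whose other genes had a median of -0.43, as described below. With the median deviation of each chromosome subtracted, also described below, EIF3H and EIF3E were called higher, at 0.18 and 0.32. EIF3I was not called there, at 0.05.

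The eIF4 factors bind and unwind the mRNA, and EIF6 keeps the ribosomal subunits apart. EIF4G2, an eIF4G relative that lacks the cap-binding partner's site, had log2 signals of 6.39, 6.44 and 6.39 in knockout cultures, against 6.18, 6.13 and 5.84 in wild-type cultures. It was 1.28-fold higher in knockout cells (log2 fold change 0.36 ± 0.09 SE, limma adjusted p = 0.013), and all 6 of its probes were called higher. EIF6 was 1.12-fold higher (4.67, 4.69 and 4.64 in knockout cultures, 4.48, 4.49 and 4.55 in wild-type cultures, adjusted p = 0.00985). The 2 helicases differed in their calls. EIF4A3, a core protein of the exon junction complex, was 1.23-fold lower (5.93, 6.02 and 5.96 in knockout cultures, 6.40, 6.15 and 6.24 in wild-type cultures, adjusted p = 0.0102). EIF4A2, a helicase of the cap complex, was not called on its brightest probe, at 6.03, 5.91 and 5.96 in knockout cultures and 6.02, 6.03 and 6.02 in wild-type cultures. The difference between these helicases was not tested.

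Of the 3 eIF2 kinases, 1 was lower and 2 were not called on their brightest probes. EIF2AK3, also known as PERK, which responds to unfolded protein in the endoplasmic reticulum, had log2 signals of -1.09, -1.50 and -1.06 in knockout cultures, against -0.74, -0.77 and -0.87 in wild-type cultures. It was 1.34-fold lower (log2 fold change -0.42 ± 0.12 SE, limma adjusted p = 0.0222), and its other probe was not called, at -0.11. EIF2AK1, known from mammals as the haem-regulated kinase, had 2.39, 2.40 and 2.31 in knockout cultures and 2.39, 2.37 and 2.39 in wild-type cultures, with a 95% interval of -0.11 to 0.09. EIF2AK2, also known as PKR, which binds double-stranded RNA, had 1.00, 1.01 and 1.29 in knockout cultures and 1.29, 0.96 and 0.97 in wild-type cultures on its brightest probe, with overlapping groups and an interval of -0.27 to 0.32. The dimmer EIF2AK2 probe, at low signal, was called lower at -1.85, so the call for this gene depended on the probe.

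**Figure D3:**
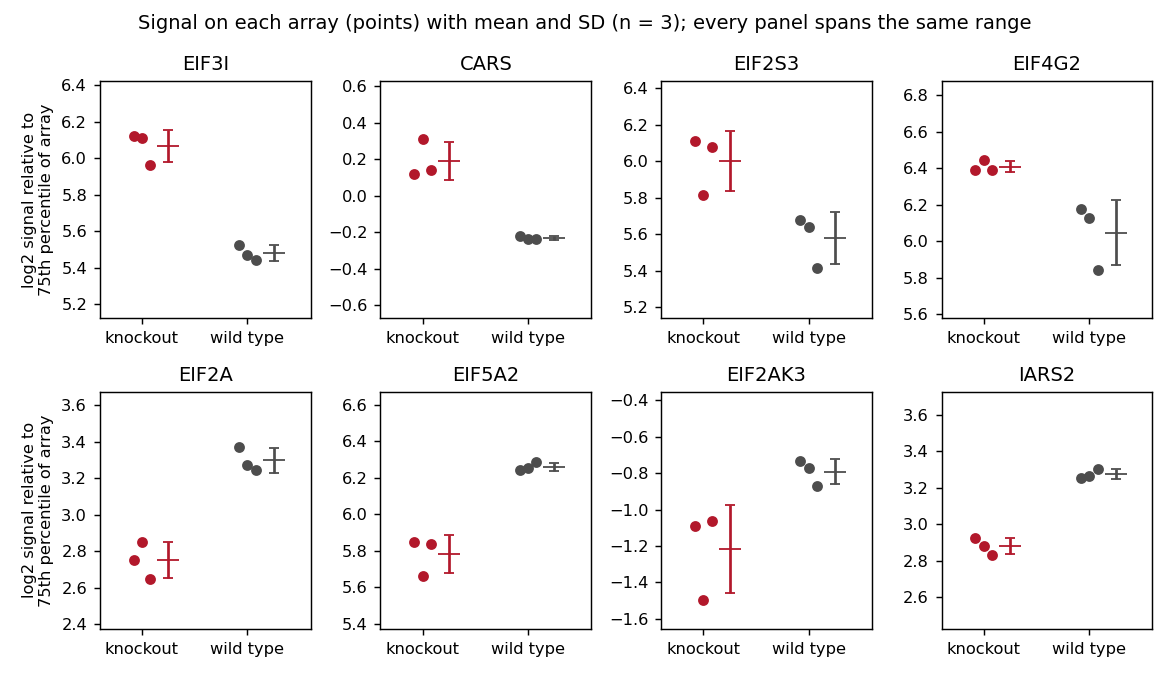
Log2 signal relative to the array's 75th percentile for the 4 members with the largest called rises and the 4 with the largest called falls, on each of 3 knockout and 3 wild-type arrays (points), with the mean and SD; each panel spans the same range. In all 8 genes the knockout and wild-type points do not overlap, and EIF2AK3 has the widest knockout spread of the 8.

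Of the 4 elongation factors none was called higher on its brightest probe. EIF5A2, a factor that carries hypusine and helps the ribosome past stalling sequences, had log2 signals of 5.85, 5.66 and 5.84 in knockout cultures, against 6.24, 6.25 and 6.29 in wild-type cultures. It was 1.39-fold lower (log2 fold change -0.48 ± 0.06 SE, limma adjusted p = 0.000549), and all 3 of its probes were called lower, at -0.55 to -0.29. EEF1A2, which delivers aminoacyl-tRNA, was 1.16-fold lower (1.30, 1.47 and 1.30 in knockout cultures, 1.62, 1.57 and 1.53 in wild-type cultures, adjusted p = 0.021). Its other tested probe was not called, at -0.02, and 2 more EEF1A2 probes were above background on no array. EEF1B2, the exchange factor for eEF1A, lay near the detection limit, at -5.75, -5.73 and -5.98 in knockout cultures and -5.61, -5.89 and -6.48 in wild-type cultures. It passed the filter only through the knockout arrays, since 2 of 3 wild-type arrays had it above background, and it was not called.

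EEF2 moves the ribosome along the mRNA. Its brightest probe had log2 signals of 6.96, 6.90 and 7.03 in knockout cultures, against 6.92, 6.66 and 6.82 in wild-type cultures, and was not called (log2 fold change 0.16 ± 0.08 SE, limma adjusted p = 0.106). The other 4 EEF2 probes were called higher, at log2 fold changes of 0.31, 0.39, 0.47 and 0.52, and the mean of all its probes was called too (0.37, adjusted p = 0.00194). The call for EEF2 therefore depended on the probe. Of the 2 methyltransferases of elongation factors, EEF1AKMT1 was 1.14-fold higher (0.97, 1.03 and 0.92 in knockout cultures, 0.76, 0.81 and 0.80 in wild-type cultures, adjusted p = 0.00903). EEF2KMT was not called, with a 95% interval of -0.20 to 0.10. GSPT2, a GTPase that helps release the finished chain, was 1.13-fold higher (2.06, 2.10 and 1.99 in knockout cultures, 1.95, 1.84 and 1.84 in wild-type cultures, adjusted p = 0.023). Of its 6 probes 4 were called higher and 2 were not called, at -0.08 and 0.10.

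Of the 9 cytosolic synthetases, 3 were higher, 3 were lower and 3 were not called. The share called, 66.7%, was near the 69.2% of all features. CARS, which charges cysteine tRNA, had log2 signals of 0.12, 0.31 and 0.14 in knockout cultures, against -0.22, -0.24 and -0.24 in wild-type cultures. It was 1.34-fold higher (log2 fold change 0.42 ± 0.06 SE, limma adjusted p = 0.000979). TARS, for threonine, was 1.20-fold higher (4.02, 4.13 and 4.11 in knockout cultures, 3.88, 3.77 and 3.81 in wild-type cultures, adjusted p = 0.0039), and SARS1, for serine, was 1.12-fold higher (adjusted p = 0.012). These 3 are among the synthetases that are known to lie outside the large multi-synthetase complex of animal cells.

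The 3 cytosolic synthetases that fell were QARS, NARS and DARS. QARS, for glutamine, had log2 signals of 3.98, 4.03 and 4.04 in knockout cultures, against 4.33, 4.22 and 4.25 in wild-type cultures, and was 1.19-fold lower (log2 fold change -0.25 ± 0.04 SE, limma adjusted p = 0.00279). NARS, for asparagine, was 1.18-fold lower (3.35, 3.33 and 3.30 in knockout cultures, 3.57, 3.56 and 3.58 in wild-type cultures, adjusted p = 0.00102). DARS, for aspartate, was 1.09-fold lower (2.18, 2.25 and 2.16 in knockout cultures, 2.30, 2.33 and 2.33 in wild-type cultures, adjusted p = 0.0343). Among the synthetases of the multi-synthetase complex that the symbol rule takes, QARS and DARS were lower, and KARS and RARS were not called, with 95% intervals of -0.02 to 0.27 and -0.04 to 0.14. AARS1, for alanine, had 0.88, 0.98 and 0.96 in knockout cultures and 0.97, 0.88 and 0.93 in wild-type cultures, and none of its 3 probes was called. NARS, which fell, and AARS1 are outside the multi-synthetase complex too, like the 3 synthetases that rose.

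Of the mitochondrial synthetases described here, which charge tRNAs inside the organelle, IARS2 and EARS2 were lower and AARS2 was higher. IARS2, for isoleucine, had log2 signals of 2.92, 2.88 and 2.83 in knockout cultures, against 3.25, 3.26 and 3.30 in wild-type cultures, and was 1.31-fold lower (log2 fold change -0.39 ± 0.04 SE, limma adjusted p = 0.000232). EARS2, for glutamate, was 1.22-fold lower (1.47, 1.47 and 1.38 in knockout cultures, 1.68, 1.75 and 1.76 in wild-type cultures, adjusted p = 0.00147). AARS2, for alanine, was 1.20-fold higher, with 2.74, 2.78 and 2.68 in knockout cultures against 2.51, 2.40 and 2.51 in wild-type cultures (adjusted p = 0.00368).

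Leaving out each array in turn ended the call of 9 of the 29 called genes, while 20 kept theirs. The share of all called features that lost theirs is not given here, so the members are not set against the array in this. EIF2B3 lost it without wild-type replicate 2 (adjusted p = 0.0504), and EIF2AK3 lost it without wild-type replicate 1 or 2 (at most 0.0654). EIF2S2 and GSPT2 lost it without knockout replicate 1 or 2 or wild-type replicate 2 or 3, with adjusted p of at most 0.0706 and 0.0764. EEF1A2 lost it without knockout replicate 1 or 3 or wild-type replicate 1 or 2 (at most 0.065). EIF1 kept its call only without knockout replicate 1, EIF3M only without knockout replicate 3, and DARS only without knockout replicate 2, with adjusted p of up to 0.143, 0.142 and 0.102 among the other omissions. EEF2 and KARS became called higher without wild-type replicate 1 (adjusted p = 0.0422 and 0.0409).

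Slides 1 and 2 each held 1 knockout and 1 wild-type array, and the remaining knockout and wild-type arrays lay on slides of their own. In each of the 29 called genes the knockout array differed from the wild-type array in the called direction on both shared slides. That direction was fixed in advance, since in all 29 the knockout and wild-type values did not overlap, so it adds no support. The median size of the difference was 0.23 and 0.25 on these slides, against 0.26 in the fit over all arrays. EIF3I, for example, differed by 0.60 and 0.64, and EIF2A by -0.62 and -0.42.

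For 36 of the 44 genes more than 1 probe was tested, and 118 of 120 probes in all. In 22 of the 36 every probe had the same call: 10 higher, 6 lower and 6 not called. In the other 14 some probes were called and some were not, and no gene had probes called in opposite directions. EIF2S2 and EIF6 had 1 of 3 probes called, and EIF1 and EIF3M had 1 of 2. EIF5, not called on its brightest probe, had 2 of 4 called higher. EIF3E and EIF4A2, also not called on theirs, had 1 of 3 and 1 of 4 called lower, each at -0.16. EIF2AK2 held the widest gap. Its dimmer probe had log2 signals of -6.20, -6.24 and -5.93 in knockout cultures, against -4.23, -4.29 and -4.30 in wild-type cultures, and was 3.60-fold lower in knockout cells (log2 fold change -1.85 ± 0.09 SE, limma adjusted p = 7.55e-06), whereas the brighter probe was not called. The dimmer probe was above background on all 6 arrays, though its knockout values lay close to the lowest signals so classed there, -6.74 to -6.50.

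**Figure D4:**
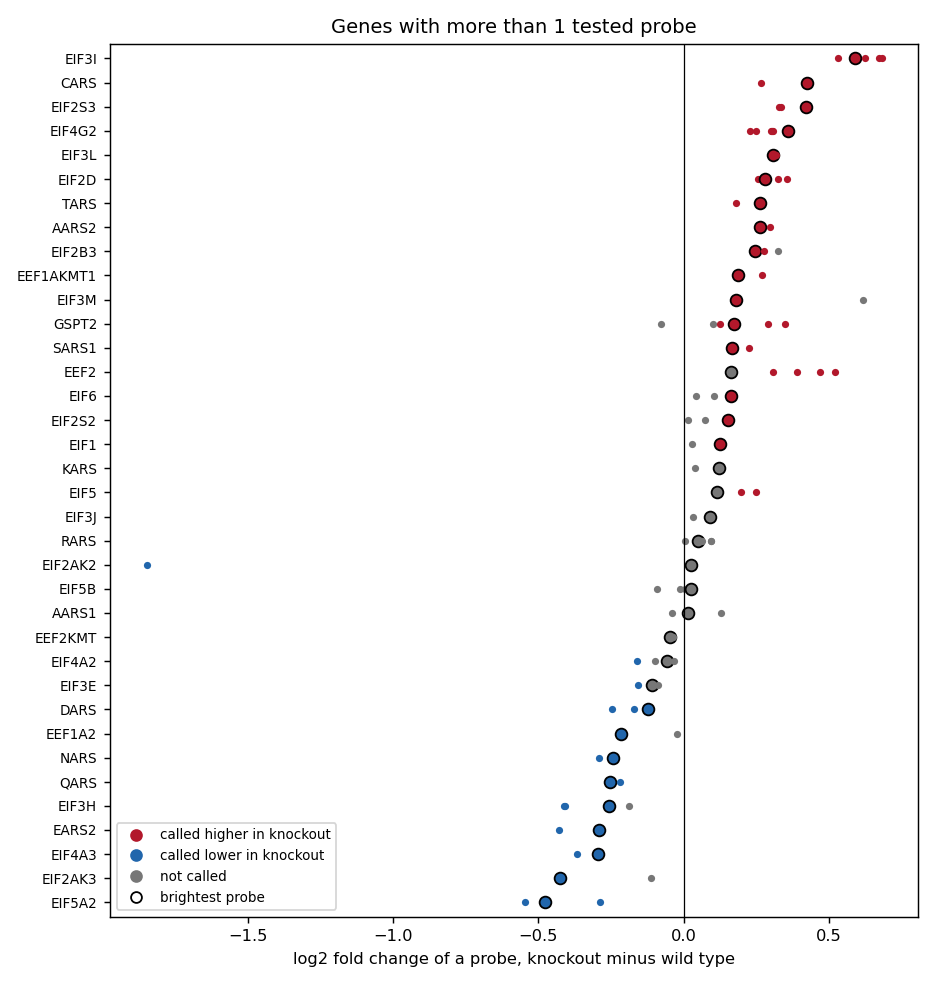
Log2 fold change (knockout minus wild type) of each tested probe for the 36 genes with more than 1, coloured by call, with the brightest probe of each gene ringed in black. The dimmer EIF2AK2 probe stands alone at -1.85, and the 4 dimmer EEF2 probes lie to the right of the ringed one.

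On some chromosomes the median of the named genes was shifted between the lines, and the fold changes of the translation genes on them are given beside those shifts. A chromosome was counted as shifted when the median log2 fold change of its genes lay at least 0.25 from the median of all placed genes, 0.05 (this limit was set with the data in view). This held for 4 of the 19 chromosomes that carry translation genes. On the one with EIF2A, EIF4A2 and EIF5A2 the other 99 genes had a median of -0.65, and 80.8% of them were called lower. On the one with EIF3E and EIF3H, which also carries IRF4, the other 335 genes had a median of -0.43, and 68.1% were called lower. On the one with AARS2, EIF2AK2, EIF4A3 and IARS2 the other 303 genes had a median of -0.39, and 69.6% were called lower. On the one with EIF3I the other 64 genes had a median of 0.51, and 76.6% of them were called higher. On the other 15 chromosomes the medians ran from 0.03 to 0.24.

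Of the 9 translation genes on the chromosomes that lay lower, 1 was higher, 5 were lower and 3 were not called. Among the other genes of these chromosomes 68.1% to 80.8% were called lower, so falls were not more frequent among the members. Of the 34 on the other 15 chromosomes, 15 were higher, 7 were lower and 12 were not called, with a median log2 fold change of 0.12. By chromosome, 36.4% to 53.1% of the other genes there were called higher and 15.4% to 31.8% lower. Thus 5 of the 12 falls, EIF2A, EIF5A2, IARS2, EIF4A3 and EIF3H, and the largest rise, EIF3I, lay on shifted chromosomes. The fold change of a gene and the median of the other genes on its chromosome had a Pearson correlation of 0.53 over the 44 genes. This is a description, since genes of 1 chromosome share that median and all share the same arrays. Copy number was not measured, and its part in these values was not tested.

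**Figure D5:**
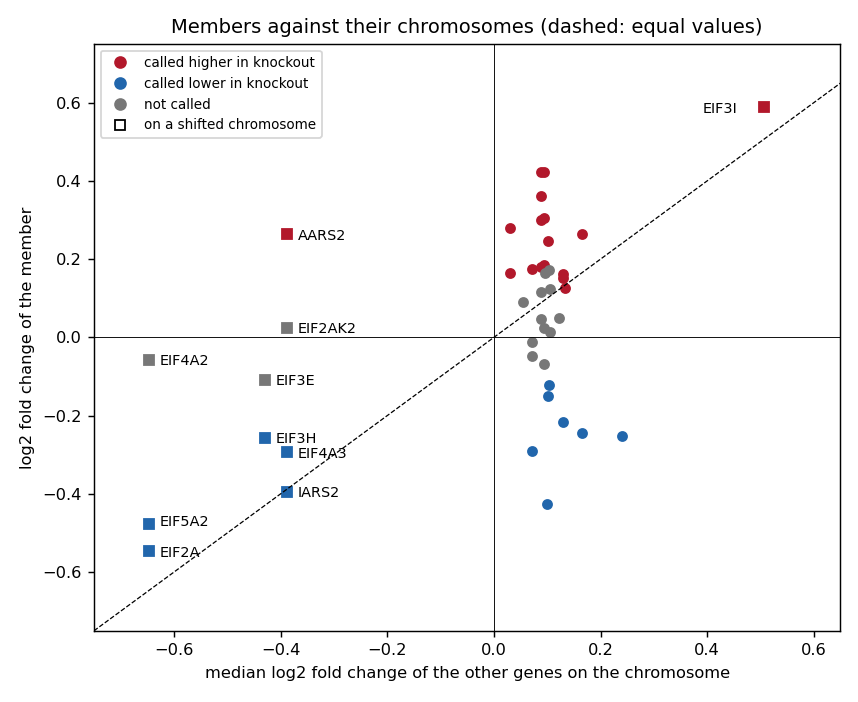
Log2 fold change of each of the 44 genes against the median log2 fold change of the other named genes on its chromosome; squares mark genes on the 4 shifted chromosomes and the dashed line marks equal values. IARS2 and EIF3I lie near the line, while AARS2 and EIF4A2 lie well above it.

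When the median deviation of each chromosome's genes was subtracted on every array, an alternative added after the data were seen, 14 of the 44 genes were higher and 7 were lower. Among the 3803 genes on chromosomes with at least 20 named genes 68.2% were called in that fit, 1292 higher and 1300 lower. The falls among the 44 genes included those of EIF2AK3, QARS, NARS, EARS2, EEF1A2 and DARS, none of which lies on a shifted chromosome. EIF3I had a value of 0.05 relative to its chromosome (limma adjusted p = 0.407) and EIF2A one of 0.10 (adjusted p = 0.134). EIF4A2 became 0.59 higher than its chromosome (adjusted p = 3.00e-05) and AARS2 0.66 higher (adjusted p = 1.83e-05). EIF5A2 and EIF3H, which fell in the plain comparison, turned to called rises of 0.17 and 0.18 (adjusted p = 0.0477 and 0.0135). When the chromosome's median level was subtracted instead, the alternative that had been planned, these were 0.13 and 0.14 and were not called (adjusted p = 0.126 and 0.0529). That planned fit also gave 14 higher and 7 lower among the 44 genes, against 1359 higher and 1229 lower among the 3803. There QARS, EEF1A2 and DARS also lost their calls, at -0.066, -0.039 and -0.015 (adjusted p = 0.248, 0.55 and 0.828). These values rose, though the other genes of their chromosomes had positive median fold changes, 0.24, 0.13 and 0.10. With the median of deviations subtracted, 8 of the 15 rises on the other chromosomes kept their call.

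Other genes of translation outside the symbol rule also moved in both directions, as did all features (40.4% called higher and 28.8% lower). Of 69 listed genes 23 were matched by exact symbol, and 8 were higher, 9 were lower and 6 were not called, with a median log2 fold change of -0.04 and none at 2-fold. Except for ATF4, PDCD4 and PABPC1, those named here were picked after their values were seen. FARSB, the beta chain of phenylalanine synthetase, had log2 signals of 2.71, 2.94 and 2.78 in knockout cultures, against 3.68, 3.52 and 3.57 in wild-type cultures. It was 1.72-fold lower (log2 fold change -0.78 ± 0.07 SE, limma adjusted p = 0.000155), and it lies on the chromosome of EIF2A. Its list of synthetase-related genes had 3 matched of 9, all lower: FARSB, EPRS, a further member of the multi-synthetase complex, at -0.19 and DTD1, which removes D-amino acids from tRNA, at -0.53. All 3 lie on chromosomes that lay lower, with medians of -0.65 for that of FARSB and -0.39 for that of EPRS and DTD1.

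Of the mRNA binding and scanning genes 6 of 12 were matched, with 1 higher, 1 lower and 4 not called. PDCD4, an inhibitor of the eIF4A helicase, was 1.25-fold lower (limma adjusted p = 0.000606), and PABPC1, the poly(A) binding protein, was not called (95% interval -0.15 to 0.07). Of the genes that modify eIF5A with hypusine or eEF2 with diphthamide 5 of 8 were matched, with 3 higher and 2 lower. DPH1, of the first step of diphthamide synthesis, had log2 signals of 2.98, 3.05 and 3.02 in knockout cultures, against 2.44, 2.41 and 2.42 in wild-type cultures, and was 1.51-fold higher (adjusted p = 2.49e-05). DOHH, which completes hypusine, was lower, at -0.26 (adjusted p = 0.00415). Of the ribosome rescue genes 3 of 7 were matched, with PELO and GTPBP1 higher at 0.48 and 0.65 and GTPBP2 lower at -0.47. MTIF2, the mitochondrial initiation factor and the only match of 9 in its list, was lower at -0.49 (adjusted p = 0.000107).

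Of the genes of the eIF2 phosphorylation response 3 of 13 were matched. ATF4, the transcription factor translated when eIF2 is phosphorylated, had log2 signals of 6.62, 6.54 and 6.54 in knockout cultures, against 6.44, 6.40 and 6.41 in wild-type cultures, a log2 fold change of 0.15 ± 0.04 (SE, limma adjusted p = 0.0183). ASNS, asparagine synthetase and a known ATF4 target, was 1.57-fold lower, at 2.27, 2.24 and 2.26 in knockout cultures against 2.93, 2.93 and 2.84 in wild-type cultures (adjusted p = 2.61e-05), on the chromosome of EIF3H. CHAC1, another ATF4 target, was not called, at 0.12. Of the mTOR and MNK genes 2 of 11 were matched. MKNK1, which phosphorylates the cap-binding protein eIF4E, was 1.69-fold higher, at -0.17, -0.04 and -0.15 in knockout cultures against -0.86, -0.86 and -0.90 in wild-type cultures (adjusted p = 2.5e-05), and RPS6KB1, the S6 kinase, was not called, at 0.05. Of the 9 falls among these 23 genes 6 lay on shifted chromosomes, and of the 8 rises none did. In all, 7 of the 23 lie on the chromosomes that lay lower, where 68.1% to 80.8% of the other genes were called lower.

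The balance of rises and falls among the 44 genes depended on how the arrays were scaled. Scaling to the 75th percentile gave 17 higher and 12 lower, a share of 58.6% higher among the called. Centring each array on its median gave 9 higher and 14 lower, and quantile normalisation gave 11 higher and 14 lower. Over all features the counts moved the same way, to 6400 higher and 6861 lower with median centring and 7167 higher and 6340 lower with quantile normalisation, against 8005 and 5697, with the median of all features at -0.0012 and 0.03 in place of 0.09. Under both scalings EIF3E and EIF4A2, not called above, were called lower, EIF3E at -0.20 and -0.24 and EIF4A2 at -0.15 and -0.20 (limma adjusted p of 0.0468, 0.0129, 0.0241 and 0.0245). EIF1, called higher above, was at -0.03 with quantile normalisation and was not called. EIF6, EIF2S2 and EIF3M lost their calls under both scalings, EIF6 at 0.07 with median centring and 0.08 with quantile normalisation (adjusted p = 0.221 and 0.155). EIF2S3 and EIF4G2 lost theirs with quantile normalisation, at 0.27 and 0.22 (adjusted p = 0.0638 and 0.0517). EIF1, EIF2B3, EEF1AKMT1, GSPT2 and SARS1 lost theirs with median centring (adjusted p of 0.0941 to 0.537).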

How the data were processed

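Total RNA of 3 IRF4 knockout and 3 wild-type DT40 cultures was labelled with Cy3 and hybridised to 6 Agilent arrays, per the labels' protocols; 1 label field says biotin. Signals were extracted with Agilent Feature Extraction 10.7.1.1, per the file headers, and the deposited processed signal, a background-subtracted intensity, was the starting point. Use of limma and R 2.12.0 is recorded in the submitters' processing notes. The deposited series table holds a linear intensity with the same median, 225.718, in every column, and it served as an alternative after log2 transformation.

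The intensity was divided by the array's 75th percentile, log2 transformed and averaged over spots of a probe. Control spots and outlier spots (72 to 152 per array) were left out. Features not well above background throughout either group (all 3 arrays) were dropped. Groups were compared with limma 3.58.1 (lmFit, eBayes) in R 4.3.3, two-sided, with Benjamini-Hochberg adjustment over 19802 features, tested on simulated data. Of 43603 probes 10691 (24.5%) were named through RefSeq accessions of GRCg7b, a later build than galGal3 of the array, so no coordinates are given. The number of arrays, 3 in each group, limits the precision; the median SE of a log2 fold change was 0.05.

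The members and lists were chosen with earlier results of these data known. Genes with full values are the 12 largest called rises and 12 largest called falls, the 5 brightest, the 5 uncalled genes nearest to no change, and matched genes from a list of central factors, of which 5 of 14 were matched. Same-numbered cultures did not deviate together (correlations of -0.026, -0.012 and -0.015 over features), so the numbers were not taken as pairs. The alternatives were other scalings, background correction, no filter, mean of probes, slide and replicate blocks, chromosome medians and leaving out each array. The values of 1 gene, counted among the 44, are not reported here.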

Additional observations from a re-analysis of the deposited data

How the results depend on the processing

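IRF4 was called lower under every alternative run. The count of translation genes called higher, 17, was 9 with median centring, 11 with quantile normalisation, 11 in the deposited table and 7 with slide as a fixed block, and 12 to 17 when each array was left out. The count called lower, 12, was 4 with slide as a fixed block, 7 with chromosome medians subtracted by either method, and 8 to 11 when each array was left out. The fixed slide block ended 18 calls, EIF2S3 (0.30, adjusted p = 0.0686) and EIF6 among them, and over all features it gave 5901 higher and 4590 lower, against 8005 and 5697. Over all features, leaving out each array gave 7191 to 7851 higher and 5275 to 5510 lower, and the deposited table gave 7115 higher and 6290 lower. The replicate numbers did not pair the cultures. With the replicate number as a block 16 genes were higher and 10 lower, DARS and EIF1 among those that lost their calls. Over all features that block gave 7556 higher and 5436 lower. AARS2, CARS, EIF2B2, EIF2D and EIF3L kept their calls in all 17 alternatives. The share of all called features that did so is not given here. Where a value was called in the comparison or under the alternative, signs turned as follows, and 41 further turns, in 11 genes, were between uncalled values. EIF1 was -0.0334 with quantile normalisation and -0.0337 in the deposited table. EIF2AK2 was -0.91 as the mean of its probes. With the chromosome median of levels subtracted, AARS1 was -0.20, EIF1 -0.22, EIF2A 0.0661, EIF3E 0.29, EIF3H 0.14, EIF4A2 0.56, EIF4A3 0.16, EIF5A2 0.13, IARS2 0.0582 and RARS -0.39. With the median of deviations subtracted, EIF1 was -0.0036, EIF2A 0.10, EIF3E 0.32, EIF3H 0.18, EIF4A2 0.59, EIF4A3 0.10, EIF5A2 0.17 and IARS2 0.0035. Subtracting the median of deviations removes the median shift of neighbouring genes by construction. Subtracting the median of levels need not do so. It moved EIF2D from 0.28 to 0.55, while the other genes of its chromosome had a median log2 fold change of 0.03. The cause of the other changes was not tested. The fixed slide block drops the arrays that lie alone on a slide from the comparison. Low signal limits EEF1B2 and the dimmer EIF2AK2 probe.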
